A study of Mus musculus with 8 samples.

Results

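Genes of mast cells, basophils and eosinophils were followed in Sca1+Lin- cells sorted from mouse bone marrow, a fraction that carries the surface marker Sca1, lacks lineage markers and is enriched for blood stem and progenitor cells. The genes are Cpa3, Mcpt8, Ms4a2, Fcer1a, Prss34, Hdc, Prg2 and Epx, and every probe set whose single listed gene is among them was taken. That gave 9 probe sets of 45037 and 7 genes of 18193. Ms4a2 and Hdc have a pair of probe sets each, and Prss34, a basophil serine protease, is not analysed here. RNA of 3 samples from wild-type mice and 5 samples from Sca1-MALT1 transgenic mice was amplified and hybridised to 1 Affymetrix array each. The transgene's name joins the Sca1 promoter with MALT1, an oncogene of MALT lymphoma that acts in antigen receptor signalling, and the comparison asks how the sorted fraction differs between the genotypes. The labels give no strain, age, sex or treatment, and do not say whether animals were pooled or whether each sample is a separate mouse. The p-values therefore reflect only how far these samples spread, which may be technical. As a guide to sex, Xist was above 9 in 2 Sca1-MALT1 samples and in 0 wild-type samples.

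Mast cells, basophils and eosinophils are granulocytes of allergy and of defence against parasites, and all derive from myeloid progenitors in the bone marrow. Mast cells and basophils bind IgE through the high-affinity receptor, whose alpha chain (Fcer1a) holds the antibody and whose beta chain (Ms4a2) amplifies the signal, and they store histamine, made by histidine decarboxylase (Hdc), together with proteases such as carboxypeptidase A3 (Cpa3) and the basophil protease Mcpt8. Eosinophil granules hold major basic protein (Prg2) and eosinophil peroxidase (Epx). GATA factors take part in the development of all these lineages.

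Values are log2 signals of the robust multi-array average (RMA), so that 1 unit is a 2-fold step, and each array's median over all probe sets lay between 6.40 and 6.48. RMA gives no detection call, and the signal of 1 gene cannot be set against that of another. The arrays correlated with each other at r between 0.956 and 0.983 over 18193 genes. Sca1-MALT1 replicate 4 had the lowest mean correlation with its own group, 0.964, against 0.969 to 0.981 for the other arrays. The Gapdh control probe sets read 2.25 to 3.20 higher at the 3' than at the 5' end, lowest in Sca1-MALT1 replicate 4 and highest in replicate 5. As a check of the sort, the progenitor gene Kit read 9.24 to 11.06 in wild type and 8.43 to 10.65 in Sca1-MALT1. Of 11 stem and progenitor genes 9 were lower on average, with a median difference of -1.06, 4 at an unadjusted p under 0.05 and none past the threshold, and their mean was 9.43 to 10.82 in wild type and 8.33 to 10.40 in Sca1-MALT1. Genes of mature neutrophils also read high, with S100a8 at 14.57 to 15.07 in wild type. In such bulk samples, fewer cells of a type and less RNA per cell cannot be told apart.

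None of the 7 measured genes passed the threshold between genotypes (an adjusted p of 0.05 by limma's test, Benjamini-Hochberg over all genes), and none had an unadjusted p under 0.05. Over all genes, 0.0879% passed, 16 of 18193, and 10.2% had an unadjusted p under 0.05. In none of the 7 genes did the groups stay apart without overlap, where 7.13% of all genes did. Of the members, 3 were higher and 4 lower in Sca1-MALT1 on average, with a median log2 difference of -0.27 beside 0.0040 over all genes. The members varied widely from array to array. Their SD over the 8 arrays had a median of 1.49 log2 units, beside 0.25 over all genes. All 7 lay above the 90th percentile of all genes in the SD over the 8 arrays, from the 91.8th for Cpa3 to the 99.9th for Prg2, and all 7 did so among the 5 Sca1-MALT1 arrays alone. All 11 measured genes of a list of neutrophil genes also lay above the 90th percentile over the 8 arrays. They ran from the 92.7th for S100a8 to the 99.9th for Ctsg, so a wide spread was not particular to the members. These ranks are given as a description.

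**Figure D1:**
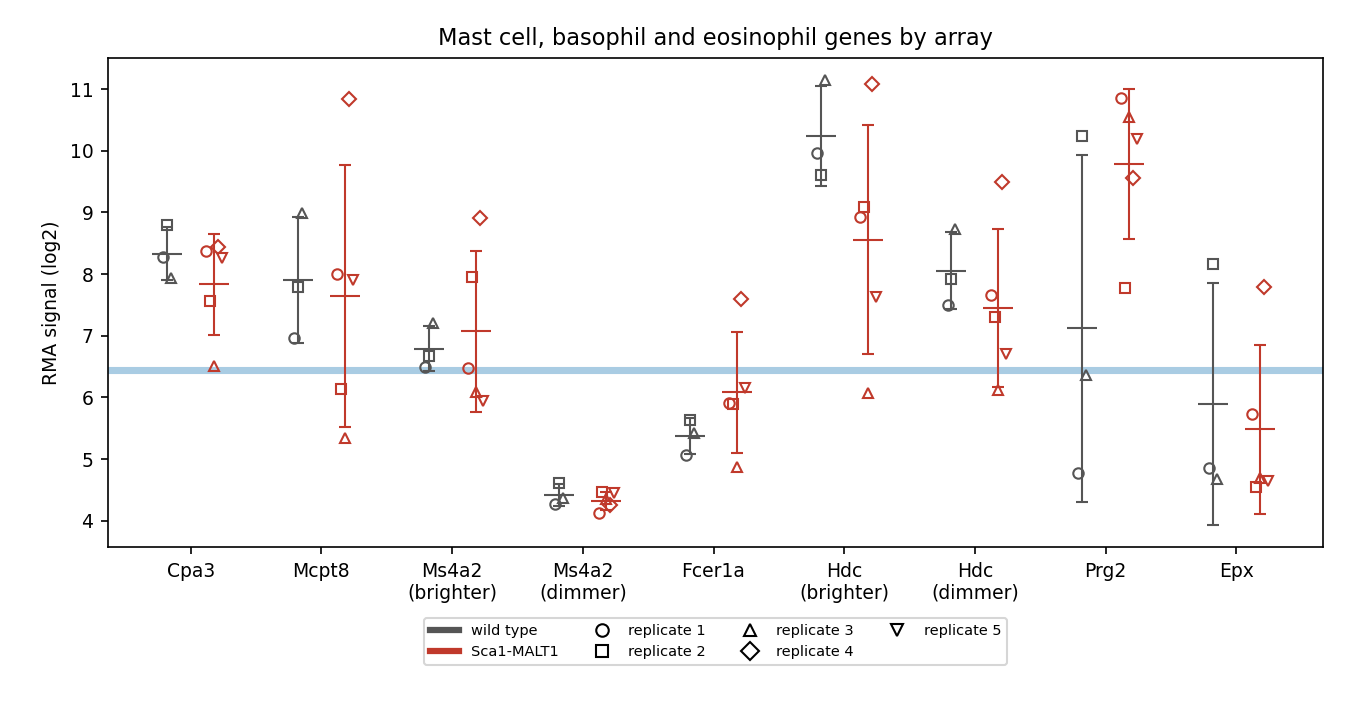
Log2 RMA signal of the 9 probe sets in each array, with grey symbols for the 3 wild-type and red symbols for the 5 Sca1-MALT1 samples. Symbol shape gives the replicate number, horizontal ticks and bars the group mean and SD, and the blue band the range of array medians (6.40 to 6.48). The groups overlap in every probe set, and Sca1-MALT1 replicate 4 (diamonds) is the highest array in 4 of the 9, as it is for 12.9% of all probe sets.

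Promoter sequence stands here for Cpa3, Fcer1a and Epx, genes of the mast cell, IgE receptor and eosinophil groups, to show where the letters GATAA lie, if present. The sequences are RefSeq's, assembly GRCm38.p6, read 5' to 3' on the gene's strand, and end where RefSeq's gene span begins. Capitals mark GATAA or its reverse complement TTATC, and the Epx sequence holds neither.
Cpa3, chr3:20242210-20242431, minus strand: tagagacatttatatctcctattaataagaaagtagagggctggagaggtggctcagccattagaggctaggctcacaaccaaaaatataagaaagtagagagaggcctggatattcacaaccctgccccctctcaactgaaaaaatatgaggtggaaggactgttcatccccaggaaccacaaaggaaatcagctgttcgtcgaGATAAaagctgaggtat
Fcer1a, chr1:173227233-173227479, minus strand: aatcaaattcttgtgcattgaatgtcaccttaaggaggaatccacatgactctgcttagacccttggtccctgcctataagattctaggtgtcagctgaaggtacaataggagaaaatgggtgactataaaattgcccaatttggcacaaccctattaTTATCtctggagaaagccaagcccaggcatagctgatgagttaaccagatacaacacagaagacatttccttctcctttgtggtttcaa
Epx, chr11:87875537-87875786, minus strand: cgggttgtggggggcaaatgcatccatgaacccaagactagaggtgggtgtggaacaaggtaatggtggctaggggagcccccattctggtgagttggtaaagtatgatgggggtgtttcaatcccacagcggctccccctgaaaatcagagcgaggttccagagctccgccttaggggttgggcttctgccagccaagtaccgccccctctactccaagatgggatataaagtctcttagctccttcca
A promoter window was on hand for 7 of the 8 genes, all but Prg2. Over the 250 bases before the table's start site, 4 of these 7 hold GATAA on either strand (Cpa3, Ms4a2, Fcer1a and Prss34), beside 22.6% of 32851 such windows over all genes. In Cpa3 the site begins 45 bases before the start, in Fcer1a 92 and in Prss34 30, and Ms4a2 has 3 sites. These letters are not in the windows of Mcpt8, Hdc and Epx. The windows of Mcpt8 and Hdc lie wholly inside RefSeq's gene span, so they are not sequence before the gene. The last 71 bases of the Ms4a2 window, with 2 of its 3 sites, lie inside it too. So do the last 28 bases of the Cpa3 window and the last 3 of the Fcer1a window. These are not printed above, so the printed sequences of Cpa3 and Fcer1a end before the table's start site. GAGGAA, the letters of a PU.1 site, is in 2 of the 7 windows and in 23.3% of all windows, and the C/EBP letters TTNCNNAA are in 1 of the 7 and in 36.8% of all windows. Matches are a description of the letters and not of bound sites.

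Among the proteases, Cpa3 was read above the array median in all 8 arrays. In wild type Cpa3 read 8.27, 8.79 and 7.93, and in Sca1-MALT1 8.38, 7.57, 6.52, 8.43 and 8.27, in the order of the replicate numbers. Sca1-MALT1 replicate 3 lay furthest below the wild-type arrays, replicate 2 lay slightly below them, and the other 3 lay inside their range. The means were 8.33 ± 0.43 (SD, n = 3) and 7.83 ± 0.81 (n = 5), a log2 difference of -0.50 (SE 0.45, 95% interval -1.52 to 0.53, limma adjusted p = 0.761, exact permutation p = 0.393).

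Mcpt8 had the widest range of the basophil and mast cell genes. It read 6.96, 7.78 and 8.99 in wild type and 8.00, 6.14, 5.35, 10.84 and 7.90 in Sca1-MALT1. The lowest and the highest of all 8 values were both transgenic, replicate 3 and replicate 4, and they stood 45.2-fold apart as measured, with the lower of the pair below its array's median. The group means of 7.91 ± 1.02 (n = 3) and 7.64 ± 2.12 (n = 5) differed by -0.27 (SE 1.13, 95% interval -2.86 to 2.33, limma adjusted p = 0.96, exact permutation p = 0.893). The interval holds both a several-fold fall and a several-fold rise, and the sign turned without wild-type replicate 3 (0.27), Sca1-MALT1 replicate 2 (0.11) or Sca1-MALT1 replicate 3 (0.31).

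Of the IgE receptor's chains, Fcer1a, which holds IgE, was above the array median in 1 array, Sca1-MALT1 replicate 4. It read 5.06, 5.64 and 5.42 in wild type and 5.91, 5.89, 4.87, 7.59 and 6.15 in Sca1-MALT1, so that 4 transgenic arrays lay above all wild-type arrays and replicate 3 lay below them. The difference was 0.71 (SE 0.51, 95% interval -0.46 to 1.88, limma adjusted p = 0.693, exact permutation p = 0.25).

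Of the probe sets of Ms4a2, the beta chain, the brighter was above the array median in 6 of 8 arrays. It read 6.49, 6.68 and 7.20 in wild type and 6.48, 7.95, 6.08, 8.92 and 5.94 in Sca1-MALT1, with a difference of 0.28 (SE 0.68, 95% interval -1.27 to 1.83, limma adjusted p = 0.922, exact permutation p = 0.786). Here replicates 4 and 2 of Sca1-MALT1 were the highest arrays, and replicates 5 and 3 the lowest. Replicates 4 and 2 are also the arrays with Xist above 9, and with a term for Xist the difference turned to -0.63. As no wild-type array had Xist above 9, that difference is only of the other Sca1-MALT1 arrays against wild type. It cannot separate sex from genotype. Without Sca1-MALT1 replicate 4 the difference turned to -0.18. The dimmer probe set stayed between 4.12 and 4.61 in all 8 arrays, below every array's median, and differed by -0.09 (exact permutation p = 0.464). The 3rd chain of the receptor, Fcer1g, is shared with other Fc receptors of myeloid cells and read 9.49 to 10.87 in wild type and 8.79 to 11.11 in Sca1-MALT1, again highest in replicate 4 and lowest in replicate 3 (difference -0.27, limma adjusted p = 0.902; named beyond the rule).

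Hdc, the histamine-forming enzyme, had the largest negative difference of the members. Its brighter probe set read 9.96, 9.61 and 11.15 in wild type and 8.93, 9.08, 6.08, 11.08 and 7.62 in Sca1-MALT1. Of the transgenic arrays, 4 lay below all wild-type arrays, and replicate 4 lay close to the highest wild-type array. The means of 10.24 ± 0.81 (n = 3) and 8.56 ± 1.86 (n = 5) differed by -1.68 (SE 0.98, 95% interval -3.94 to 0.57, limma adjusted p = 0.61, exact permutation p = 0.179). Without Sca1-MALT1 replicate 4 the difference was -2.31 (limma adjusted p = 0.279), and without replicate 3 it was -1.06 (limma adjusted p = 0.78). The dimmer probe set ranged from 6.12 to 9.50 with the same array lowest, and differed by -0.60 (exact permutation p = 0.5). Its highest array was Sca1-MALT1 replicate 4, above all wild-type arrays, and Sca1-MALT1 replicate 1 (7.66) lay above wild-type replicate 1 (7.50).

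**Figure D2:**
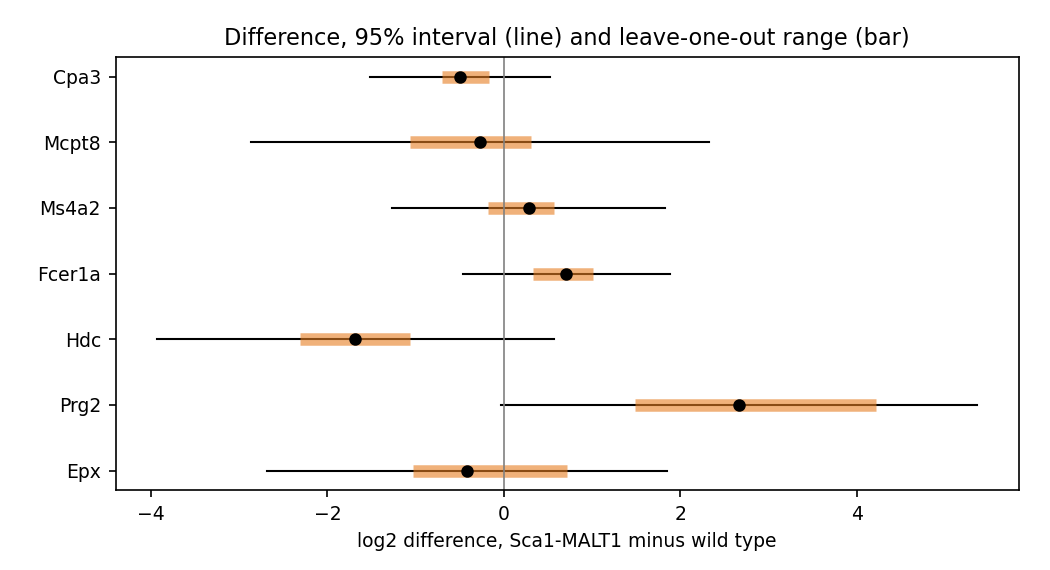
Log2 difference, Sca1-MALT1 minus wild type, of the brightest probe set of each of the 7 measured genes. Points are the estimates over 8 arrays, black lines the 95% intervals of the limma fit and orange bars the range when each array is left out in turn. Every 95% interval includes 0; that of Prg2 begins at -0.04.

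Among the eosinophil granule genes, Prg2, the gene of major basic protein, had the largest positive difference of the members. It read 4.77, 10.23 and 6.36 in wild type and 10.86, 7.78, 10.55, 9.56 and 10.19 in Sca1-MALT1. Wild-type replicates 1 and 3 were below all 5 transgenic arrays, while wild-type replicate 2 was higher than 3 of them. The means of 7.12 ± 2.81 (n = 3) and 9.79 ± 1.22 (n = 5) differed by 2.67 (SE 1.18, 95% interval -0.04 to 5.37, limma adjusted p = 0.494, exact permutation p = 0.143). The SD in wild type was at the 99.98th percentile of all genes. Without wild-type replicate 2 the difference was 4.22 (limma adjusted p = 0.266), and without wild-type replicate 1 it was 1.49 (limma adjusted p = 0.804), so single wild-type arrays moved it by more than 1.5 times.

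Epx, the peroxidase of the same granules, was above the array median in 2 arrays, wild-type replicate 2 and Sca1-MALT1 replicate 4. It read 4.85, 8.16 and 4.67 in wild type and 5.73, 4.54, 4.70, 7.78 and 4.65 in Sca1-MALT1. The difference of -0.42 (SE 0.99, 95% interval -2.68 to 1.85, limma adjusted p = 0.921, exact permutation p = 0.643) turned to 0.72 without wild-type replicate 2. Prg2 and Epx were both above the array median in wild-type replicate 2 and Sca1-MALT1 replicate 4, and Prg2 without Epx in Sca1-MALT1 replicates 1, 2, 3 and 5. The Prg2 signal minus the Epx signal within an array was -0.08, 2.07 and 1.69 in wild type and 5.13, 3.24, 5.86, 1.77 and 5.54 in Sca1-MALT1. This measure averaged 1.22 ± 1.15 (n = 3) and 4.31 ± 1.74 (n = 5), a difference of 3.08, and the groups overlapped. It was chosen after the values were seen, so no p is given. Outside wild-type replicate 2 and Sca1-MALT1 replicate 4, Epx read 4.54 to 5.73, so there the measure mostly repeats the Prg2 signal.

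The neighbour gene Prg3 had the same highest arrays as Epx. Prg3, the next protein-coding gene after Prg2 in the RefSeq annotation, which codes for a related basic protein, read 5.77, 7.57 and 6.03 in wild type and 6.19, 5.57, 5.32, 6.70 and 5.58 in Sca1-MALT1 (difference -0.58, limma adjusted p = 0.723). Its highest arrays were wild-type replicate 2 and Sca1-MALT1 replicate 4. Ccr3, the eotaxin receptor, stayed between 3.84 and 4.30, and Siglecf, a surface lectin of mouse eosinophils, between 4.39 and 5.57 (named beyond the rule), all below the array medians. Of 10 measured genes of the eosinophil list, which holds neither Prg2 nor Epx, 3 were higher and 7 lower, none past the threshold, with a median difference of -0.23 beside 0.0040 over all genes. Ear1, Ear2, Ear6, Ear10 and Cebpe of the list were not among the measured genes. Adgre1 is also on the monocyte list, so the median is not one of eosinophils alone. The lowest p-values were those of the lipoxygenase Alox15 at 0.59 (limma adjusted p = 0.483), Padi2, which converts arginine to citrulline in proteins, at 0.56 (limma adjusted p = 0.614) and Ccr3 at -0.17 (limma adjusted p = 0.675). Alox15 read 4.91 to 6.20, below every array's median.

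Plasma cell genes were measured beside Prg2. The mean of 10 plasma cell genes was 8.73 to 9.05 in wild type and 12.38, 10.75, 11.30, 11.78 and 11.86 in Sca1-MALT1, with all 10 genes higher on average and Jchain past the threshold. Replicate 1 was the highest and replicate 2 the lowest transgenic array for both Prg2 and this list. The arrays between them ran in different orders, from the highest replicates 3, 5 and 4 for Prg2 and 5, 4 and 3 for the list. Wild-type replicate 2, at 10.23 for Prg2, had a plasma cell mean of 8.98, inside the range of the other wild-type arrays. The part of plasma cells in the Prg2 signal was not tested.

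**Figure D3:**
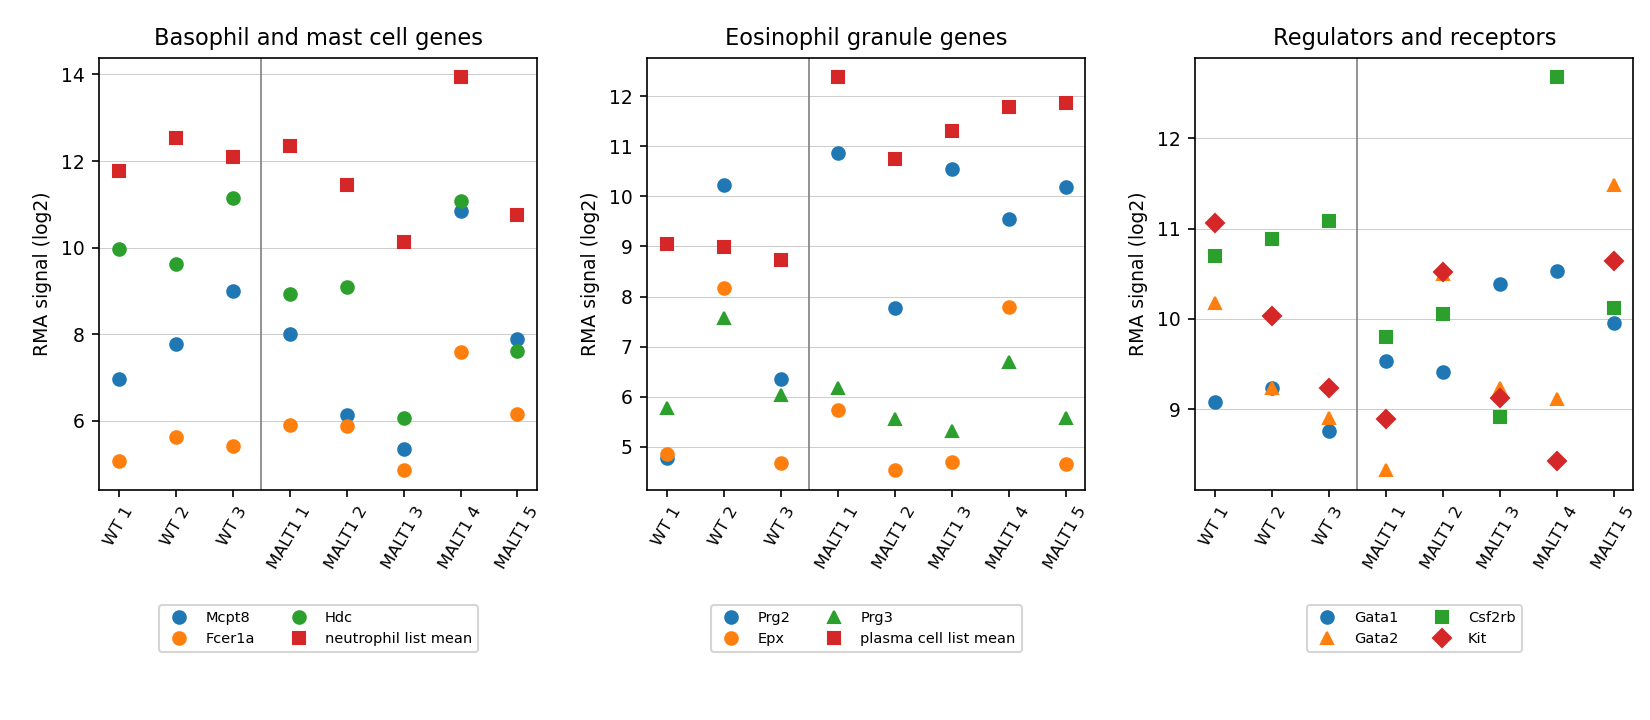
Log2 RMA signal in each array (WT, wild type; MALT1, Sca1-MALT1; numbers are replicates, which have no order). The left panel sets Mcpt8, Fcer1a and Hdc beside the mean of 11 neutrophil genes, the middle panel Prg2, Epx and Prg3 beside the mean of 10 plasma cell genes, and the right panel shows Gata1, Gata2, Csf2rb and Kit. Mcpt8 and Fcer1a are highest in Sca1-MALT1 replicate 4 and lowest in replicate 3, as is the neutrophil mean (13.93 and 10.14), and Prg2 reads above the array median in all 5 transgenic arrays and in 1 of 3 wild-type arrays.

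Several members had the same arrays at the ends. Sca1-MALT1 replicate 3 was the lowest array for 4 of the 7 genes (Cpa3, Mcpt8, Fcer1a and Hdc), and it was the lowest for 13.3% of all genes. Replicate 4 was the highest array for 3 of the 7 (Mcpt8, Ms4a2 and Fcer1a), and for 13.3% of all genes. With each group's mean removed, Pearson's r over the 8 arrays, given as a description, was 0.91 between Mcpt8 and Fcer1a, 0.87 between Hdc and the brighter probe set of Ms4a2, 0.84 between Hdc and Fcer1a and 0.82 between Hdc and Mcpt8. All pairs among the 5 mast cell and basophil genes lay between 0.25 and 0.91. Prg2 lay between -0.32 and 0.25 with these 5 genes and at 0.61 with Epx.

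The neutrophil and monocyte lists had Sca1-MALT1 replicate 4 highest on average, but not every gene followed. The mean of 11 neutrophil genes was 11.78 to 12.53 in wild type and 12.34, 11.45, 10.14, 13.93 and 10.76 in Sca1-MALT1, highest in replicate 4 and lowest in replicate 3. Of its genes 3 were higher and 8 lower on average, none past the threshold. Among its early granule genes, named beyond the rule, the elastase gene Elane read 6.02, 9.73 and 6.44 in wild type and 9.77, 6.93, 6.57, 12.48 and 7.54 in Sca1-MALT1, highest in replicate 4, with wild-type replicates 1 and 3 below all transgenic arrays. The myeloperoxidase gene Mpo read 12.28, 12.97 and 9.34 in wild type and 12.63, 10.25, 8.13, 14.53 and 10.13 in Sca1-MALT1, highest in replicate 4 and lowest in replicate 3. Of the list's other genes, also named beyond the rule, Prtn3, Ctsg and Lcn2 were highest in Sca1-MALT1 replicate 4 too. Ltf, Camp, Ngp, S100a8, S100a9 and Csf3r were instead highest in wild-type replicate 3, as in Ltf at 14.65 against 14.41 in Sca1-MALT1 replicate 4. Camp, Ngp and S100a8 were lowest in Sca1-MALT1 replicate 5. The mean of 10 monocyte and macrophage genes was 9.72 to 11.02 in wild type and 9.31 to 11.08 in Sca1-MALT1, again highest in replicate 4 but lowest in replicate 2. The part of these cells in the members' order was not tested.

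The other genes most like each member by the same measure were as follows. Closest to Mcpt8 were Klf5 (r = 0.99), the Toll-like receptor Tlr2 (0.98) and the chemokine Ccl9 (0.98). Closest to Hdc were Ptgr1, a reductase of prostaglandins (0.995), Lst1 (0.98) and S100a9, a protein of neutrophils and monocytes (0.97). Fcer1a was nearest to Gng12 (0.98), Csf2rb, the shared signalling chain of the IL-3, IL-5 and GM-CSF receptors (0.97), and Aldh1b1 (0.97). The brighter probe set of Ms4a2 was nearest to Plin2 (0.98), Slfn4 (0.96) and Anapc15 (0.94). Cpa3 had lower values, with Gpt2 at 0.93, Creb3l2 at 0.92 and Ddost at 0.89. Closest to Prg2 were Pxdn (0.97), Ptprb (0.95) and Gpihbp1 (0.92), each highest in wild-type replicate 2. The measure leaves out the difference between genotypes, and unlike Prg2 these genes were lower on average in Sca1-MALT1. Their wild-type and Sca1-MALT1 means were 6.85 and 5.85 (Pxdn), 7.69 and 6.73 (Ptprb), and 7.06 and 6.55 (Gpihbp1). Closest to Epx were Btnl9 (0.97), Prg3 (0.97) and Sh3gl3 (0.96). These are the highest of 3071 genes with an SD above 0.5, chosen by the measure itself.

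**Figure D4:**
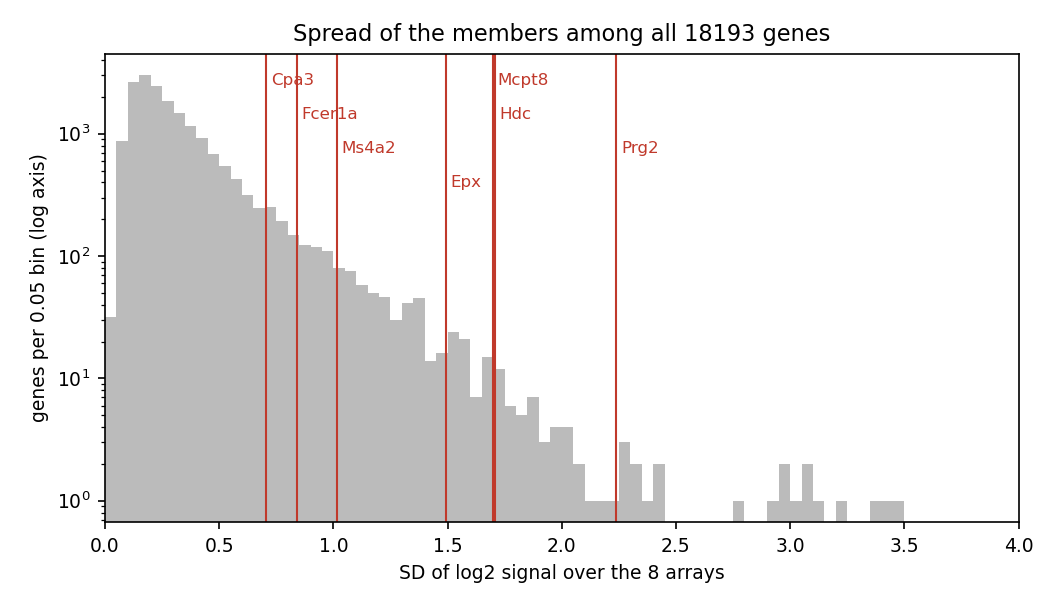
Histogram of the SD of the log2 signal over the 8 arrays for all 18193 genes, with the number of genes on a log axis. Red lines mark the 7 measured members, which lie between 0.71 (Cpa3) and 2.24 (Prg2), where the median of all genes is 0.25.

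The mast cell list holds chymases and tryptases beside proteases of other cells. Of 15 measured genes of the mast cell list, which holds granule proteases, amine genes and surface receptors, 13 were higher, 2 were lower and none was past the threshold, and the median was 0.11 beside 0.0040 over all genes. Of the 7 measured chymase and tryptase genes, 6 lay below the array median in all 8 arrays. Named beyond the rule, the values lay at 5.04 to 5.76 for Mcpt4, 5.69 to 6.13 for Tpsb2 and 5.25 to 7.46 for the chymase Cma1, the last above the array medians in Sca1-MALT1 replicates 1 and 5. The granule proteases Ctsg, which is also on the neutrophil list, and Gzmb were above it in all 8 arrays. The lowest p-values were those of Tph1, which starts serotonin synthesis, at -0.32 (limma adjusted p = 0.457), Gzmb, a granzyme of NK and T cells as well, at 1.05 (limma adjusted p = 0.517) and Ndst2, which sulphates heparin, at 0.21 (limma adjusted p = 0.667). Tph1 read 4.40 to 5.13, below every array's median. In 1 of the 15, Gzmb, the groups did not overlap, all 5 transgenic arrays being higher, where 4.27% of all genes are so. Gzmb and the mean of 9 NK cell genes were both highest in Sca1-MALT1 replicate 2, at 9.48 and 10.21. The NK cell mean was 8.79 to 9.17 in wild type and 8.18 to 10.21 in Sca1-MALT1, with 5 of the 9 genes higher on average and none past the threshold. The part of these cells in the Gzmb signal was not tested.

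Of the basophil list, 10 of 14 measured genes were higher, 4 were lower and none was past the threshold; the median was 0.46. The receptor gene Cd200r4 stood at 1.18 (limma adjusted p = 0.406), the chemokine Ccl3 at -0.73 (limma adjusted p = 0.377) and Gcnt2, a glycosyltransferase, at -1.29 (limma adjusted p = 0.409). Of the 14 genes 6 had an unadjusted p under 0.05, beside 10.2% of all genes, and in 2, the integrin Itga2 and the growth factor Csf1 (named beyond the rule), all transgenic arrays were higher than all wild-type arrays, where 4.27% of all genes are so. Itga2 read 5.15 to 6.24, below every array's median. T and NK cells express several genes of this list. The mean of 9 T cell genes was 8.70 to 8.98 in wild type and 9.75, 10.15, 10.19, 8.49 and 10.22 in Sca1-MALT1, with all 9 genes higher on average, a median difference of 0.80, 4 at an unadjusted p under 0.05 and none past the threshold. The part of these cells in the list's values was not tested. Cd200r3, an activating receptor of basophils and mast cells (named beyond the rule), read 3.78, 4.67 and 3.84 in wild type and 3.97, 3.92, 3.75, 5.33 and 3.87 in Sca1-MALT1. All 8 values lay below the array medians.

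Signalling below the IgE receptor was not uniform. Of 14 measured genes 6 were higher, 8 were lower and none was past the threshold; the median was -0.19. The kinase Syk, which binds the receptor's activated chains, read 11.59, 11.09 and 11.91 in wild type and 11.06, 9.80, 10.35, 10.79 and 9.86 in Sca1-MALT1 (difference -1.16, SE 0.33, limma adjusted p = 0.317). The lipid phosphatase Inpp5d, an inhibitor of the pathway, stood at -0.28 (limma adjusted p = 0.388) and the kinase Btk at -0.49 (limma adjusted p = 0.511). In Syk and Inpp5d all transgenic arrays were lower than all wild-type arrays, 2 of 14 genes, where 2.87% of all genes are so. B cells express these 3 genes too, and the mean of 9 B cell genes was 10.06 to 10.68 in wild type and 7.96 to 9.22 in Sca1-MALT1, with all 9 lower on average and Vpreb1 and Igll1 past the threshold. The part of B cells in these values was not tested.

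Receptors and regulators of the lineages did not pass either. The list of growth factor and cytokine receptor genes also holds the cytokines Il3, Il5 and Il33. Of its 13 measured genes 6 were higher, 7 were lower and none was past the threshold, and the median was -0.0033. Il4ra stood at 0.42 (limma adjusted p = 0.434) with no overlap, the cytokine Il3 at 0.19 (limma adjusted p = 0.675) and Csf2ra at -0.74 (limma adjusted p = 0.753). Groups without overlap in the higher direction were 1 of 13 here, beside 4.27% of all genes. Il3 read 4.14 to 4.65, below every array's median. Csf2rb read 8.92 in Sca1-MALT1 replicate 3 and 12.68 in replicate 4, against 10.70 to 11.08 in wild type. Il5ra, which makes eosinophil precursors responsive to IL-5, read 6.69 to 8.02 in wild type and 6.48 to 8.03 in Sca1-MALT1 (difference -0.08, limma adjusted p = 0.972; named beyond the rule).

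Of 19 measured transcription regulators 14 were higher, 5 were lower and none was past the threshold; the median was 0.29. Gata1, a factor of erythroid, megakaryocyte, mast cell and eosinophil development, read 9.08, 9.24 and 8.76 in wild type and 9.53, 9.42, 10.38, 10.53 and 9.95 in Sca1-MALT1, with no overlap (difference 0.94, SE 0.28, limma adjusted p = 0.333). Xbp1, which serves eosinophils and is also on the plasma cell list above, stood at 1.32 with no overlap (SE 0.22, limma adjusted p = 0.109), and Lmo4 at 0.73 (limma adjusted p = 0.555). Groups without overlap in the higher direction were 2 of 19 here, beside 4.27% of all genes. Gata2, a factor of stem cells and of mast cells (named beyond the rule), read 8.90 to 10.18 in wild type and 8.33 to 11.48 in Sca1-MALT1, with a difference of 0.29 (limma adjusted p = 0.919). The order of arrays for Gata1 was not that of Mcpt8. Sca1-MALT1 replicates 3 and 4, at opposite ends for Mcpt8, were the highest arrays for Gata1. The mean of 9 erythroid genes, Gata1 among them, was highest in the same arrays, 10.75 and 10.54 against 9.28 to 9.61 in wild type. The part of erythroid cells in the Gata1 signal was not tested.

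Genes that handle histamine and related amines did not pass. Of 9 measured, 7 were higher and 2 were lower; the median was 0.12. The receptor gene Hrh1 stood at 0.42 (limma adjusted p = 0.483) with no overlap, Hrh2 at 0.12 (limma adjusted p = 0.76) and Aoc1, an amine oxidase that degrades histamine, at 0.12 (limma adjusted p = 0.775). Groups without overlap in the higher direction were 1 of 9 here, beside 4.27% of all genes. Hrh1 lay below the array medians except in Sca1-MALT1 replicate 5, where it read 6.40 beside a median of 6.40. Aoc1 read 5.26 to 5.69, below every array's median. Slc18a2, which loads amines into granules (named beyond the rule), read 7.42 to 7.84 in wild type and 6.05, 9.51, 6.84, 6.63 and 9.50 in Sca1-MALT1. It was high in replicates 2 and 5, where Hdc read 9.08 and 7.62, and not in replicate 4, where Hdc was highest of the transgenic arrays.

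**Figure D5:**
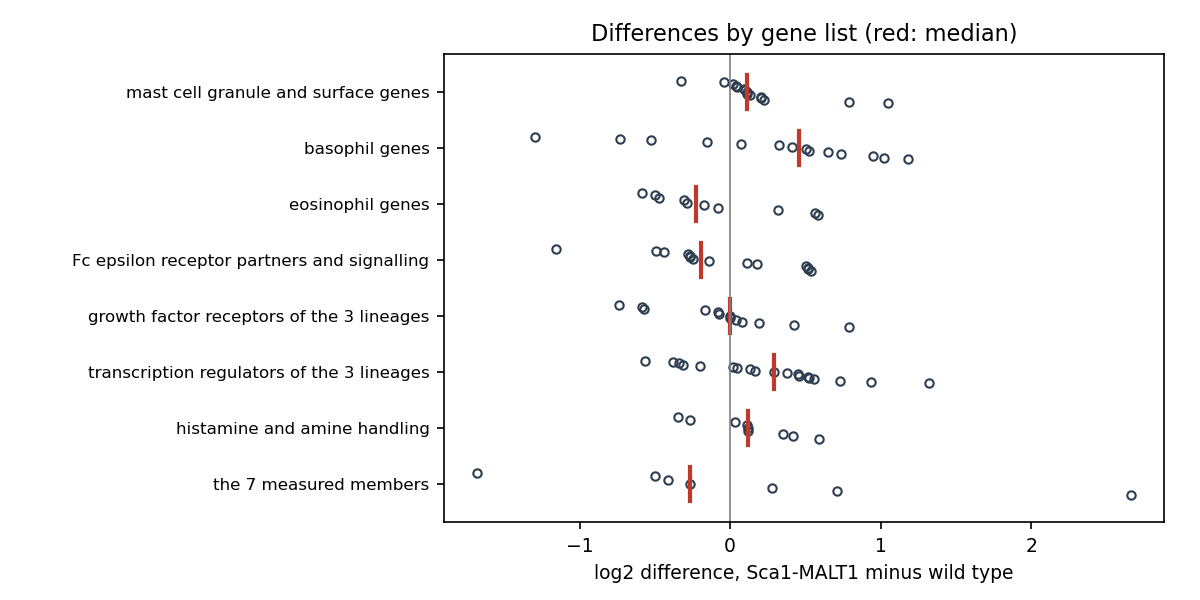
Log2 difference, Sca1-MALT1 minus wild type, of each measured gene (open circles, spread vertically by rank) in 7 lists and among the 7 measured members. Red bars are medians, from -0.23 (eosinophil list) to 0.46 (basophil list) in the lists and -0.27 in the members, and no gene shown passed the threshold.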

How the data were processed

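Total RNA of sorted Sca1+Lin- bone marrow cells from 3 wild-type and 5 Sca1-MALT1 samples was hybridised to 1-colour arrays. The table deposited by the authors gives log2 RMA values, 1 for each probe set on each array, with RMA named in the submitters' processing notes. Its version, and which arrays were normalized together, were not given in the sources used here. That the scale is log2 was taken from the range of values, 2.73 to 15.41. Of 45101 probe sets, 64 controls were left out, 34945 had 1 gene symbol in the platform annotation, 932 several and 9160 were not listed. Symbols were updated through Entrez identifiers (18031 of 18193 genes matched, RefSeq table of GRCm38.p6). Each gene was represented by its probe set with the highest mean.

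The genotypes were compared with limma 3.58.1 in R 4.3.3 (lmFit and eBayes, genotype as the only term, two-sided, Benjamini-Hochberg over all genes, threshold 0.05). Single values were tested by a two-sided exact permutation test over the 56 splits of 8 arrays, with a smallest p of 0.0179. Precision is limited by the number of arrays. The fit was tested on simulated data.

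The members and lists were chosen with earlier results of these data known. Named are all members, the 3 genes of each list with the lowest p and any past the threshold, and the 3 genes most like each member; others are marked as beyond the rule or are markers given beside a result. Alternatives were a repeated quantile normalization, median centring, a pair of filters on dim genes, tests per probe set, averaged probe sets per gene, another variance model, array weights, the replicate block, an Xist term, other thresholds and leaving out each array.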

Additional observations from a re-analysis of the deposited data

How the results depend on the processing

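No member passed the threshold under any of the 21 alternative settings, by limma's test, where between 0 and 2 members had an unadjusted p under 0.05. Of 131 recomputed member differences 124 kept their sign and 7 reversed, all 7 in genes with main differences between -0.42 and 0.28. Ms4a2 turned to -0.63 with a term for Xist (above 9 in Sca1-MALT1 replicates 2 and 4) and to -0.0017 without both Sca1-MALT1 replicates 3 and 4, a setting chosen after seeing the data. No wild-type array had Xist above 9, so differences with the Xist term are of Sca1-MALT1 replicates 1, 3 and 5 against wild type. With each array left out in turn, Ms4a2 ranged from -0.18 to 0.57, Mcpt8 from -1.07 to 0.31, Epx from -1.03 to 0.72, Cpa3 from -0.70 to -0.17, Fcer1a from 0.33 to 1.01, Hdc from -2.31 to -1.06 and Prg2 from 1.49 to 4.22. The filter on the array median kept 5 of the 7 members, without Fcer1a and Epx. The number of genes past the threshold, 16, became 27 with that filter, 27 over all probe sets, 28 with array weights, 29 with the Xist term, 6 without both replicates, 8 at a threshold of 0.01 and 38 at 0.1, and 8 to 38 with each array left out (10, 38, 8 and 9 without Sca1-MALT1 replicates 1, 2, 3 and 5). With the replicate number as a block it became 0, with 2034 genes at an unadjusted p under 0.05. Numbers 4 and 5 exist only in Sca1-MALT1, so the differences in that fit rest on replicates 1 to 3 of each genotype. Deviations of same-numbered arrays correlated at -0.22, -0.038 and 0.0064. No wild-type array correlated best with the Sca1-MALT1 array of its number, so the numbers were not taken as pairs. Of the other settings, some moved a member's difference by more than 1.5 times: with array weights, Cpa3 to -0.89, Mcpt8 to -0.91, Ms4a2 to 0.12, Fcer1a to 0.33 and Epx to -1.25; with the replicate block, Cpa3 to -0.84, Mcpt8 to -1.42, Ms4a2 to 0.046, Fcer1a to 0.18 and Epx to -0.91; with the Xist term, Mcpt8 to -0.83, Fcer1a to 0.27, Hdc to -2.70 and Epx to -0.87; with averaged probe sets, Ms4a2 to 0.095; with both of replicates 3 and 4 left out, Cpa3 to -0.26, Mcpt8 to -0.57 and Epx to -0.92. Signals below the array medians, as in Fcer1a, Epx and the dimmer Ms4a2 probe set, limit what can be read of these genes.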
